A study of Mus musculus with 119 samples.

Results

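The genes of the IκB family that were examined in mouse bone marrow–derived macrophages (BMDMs) were Nfkbia, Nfkbib, Nfkbie, Nfkbiz, Nfkbid, and Bcl3. These 6 genes were selected by symbol from the 18098 genes of the deposited RNA-seq table, and all 6 were among the 11971 genes that passed the filter on low values and were tested. On mouse build GRCm38.p6, Nfkbia (IκBα) lies at chr12:55489409-55492647 on the minus strand, Nfkbib (IκBβ) at chr7:28758251-28766644 on the minus strand, and Nfkbie (IκBε) at chr17:45555700-45563169 on the plus strand. Nfkbiz (IκBζ) lies at chr16:55811375-55838954 on the minus strand, Nfkbid (IκBNS) at chr7:30421731-30428749 on the plus strand, and Bcl3 (Bcl-3) at chr7:19808462-19822824 on the minus strand. Nfkbib overlaps Ccer2, a gene of the opposite strand that is also in the table, and the reads were strand specific according to the study's methods.

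The study examined how TPL-2, the kinase encoded by Map3k8, acts on transcription in macrophages stimulated with LPS through TLR4, and which part of this runs through ERK1/2, ELK1 and ELK4, and RSK. All cells were BMDMs of C57BL/6 background (strain C57BL/6(NIMR) in the labels), and LPS was given at 100 ng/ml. WT BMDMs were sequenced without LPS (6 libraries) and after LPS for 0.5 h (6), 1 h (6), and 2 h (4). Map3k8 D270A/D270A BMDMs, which carry catalytically inactive TPL-2, had 6 libraries at each of 0, 0.5, 1, and 2 h, and Elk1-/-Elk4-/- BMDMs, which lack these 2 ternary complex factors, had 4 at each of these times. Nfkb1 SSAA/SSAA BMDMs, in which the serines of p105 that IKK phosphorylates are replaced by alanines, had 6 libraries at each of 0, 0.5, and 1 h. WT BMDMs were also treated with the MKK1/2 inhibitor PD0325901 at 0.1 µM or the RSK inhibitor RSKi47 at 2 µM, added 10 min before LPS. PD0325901 was combined with LPS for 0.5 and 1 h (6 libraries each) and given alone for 10, 40, and 70 min (3 libraries each), beside 10 min of its solvent DMSO (3 libraries). RSKi47 was given alone for 10 min (4 libraries) and with LPS for 0.5 h (3 libraries), 1 h, and 2 h (4 libraries each). There was no DMSO library with LPS and no solvent library for RSKi47. The labels place WT and Map3k8 D270A/D270A libraries in the same experiment and each of the other genotypes and inhibitors in an experiment of its own without untreated WT libraries, so for those a difference from WT and a difference between experiments cannot be told apart.

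IκB proteins are built around ankyrin repeats with which they bind NF-κB dimers. The classical members IκBα, IκBβ, and IκBε hold NF-κB in the cytoplasm of resting cells and are degraded after phosphorylation by IKK, and NF-κB then induces their genes again, which ends its own activity. The atypical members IκBζ, IκBNS, and Bcl-3 act in the nucleus, where they bind mainly p50 or p52 homodimers and raise or lower the transcription of secondary genes. In macrophages IκBζ is needed for induction of Il6 and Lcn2, whereas IκBNS and Bcl-3 are known mostly as restraints on LPS-induced cytokine genes.

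Promoter sequences of 300 bases, from 250 bases before to 50 bases after an annotated start, were available from RefSeq (GRCm38.p6) for 5 of the 6 genes, all but Nfkbiz, in 7 windows of which 3 belong to Nfkbid. Both strands were searched for the κB-like pattern of GGG and CC with any 5 bases between them, for the κB consensus, for the AP-1 pattern TGANTCA, and for the CArG box, to which SRF binds together with the ternary complex factors. A κB-like match was present in 6 of the 7 windows, against 50.8% of the 32841 promoters in that table, and the stricter κB consensus, each match of which is also a κB-like match, in 4 of 7, against 4.51%. The κB consensus was found in Nfkbia from -29 to -20, in Nfkbie from -106 to -97, in the second Nfkbid window from -226 to -217 and from -181 to -172, and in Bcl3 from 3 to 12, counting the start as base 1. An AP-1 match was present only in the Nfkbie window (-156 to -150), against 7.81% of all promoters, no window held a CArG box (1.63% of all promoters), and the Nfkbib window held no κB-like match. The windows of Nfkbia, of Nfkbid, and of Bcl3 are shown because these genes had the highest level in the family, the largest difference from WT at 1 h, and the largest difference from WT at 2 h, respectively. For Nfkbid only 1 of its 3 windows is shown, the one with κB consensus matches. Capitals mark κB-like matches on either strand, and overlapping matches run together. The first window is chr12:55492598-55492897 on the minus strand, the second is chr7:30422156-30422455 on the plus strand, and the third is chr7:19822706-19823005 on the minus strand.
Nfkbia: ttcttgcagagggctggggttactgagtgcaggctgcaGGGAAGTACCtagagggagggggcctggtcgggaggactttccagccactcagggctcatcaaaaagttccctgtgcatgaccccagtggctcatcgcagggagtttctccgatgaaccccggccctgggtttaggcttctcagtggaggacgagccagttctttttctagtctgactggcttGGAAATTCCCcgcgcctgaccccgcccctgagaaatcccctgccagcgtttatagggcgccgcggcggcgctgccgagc
Nfkbid: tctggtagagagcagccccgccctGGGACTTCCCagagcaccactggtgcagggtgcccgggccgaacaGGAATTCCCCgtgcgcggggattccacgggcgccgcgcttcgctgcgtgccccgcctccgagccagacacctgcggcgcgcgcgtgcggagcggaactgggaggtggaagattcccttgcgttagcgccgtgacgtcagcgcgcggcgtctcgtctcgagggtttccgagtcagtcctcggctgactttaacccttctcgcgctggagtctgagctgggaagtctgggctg
Bcl3: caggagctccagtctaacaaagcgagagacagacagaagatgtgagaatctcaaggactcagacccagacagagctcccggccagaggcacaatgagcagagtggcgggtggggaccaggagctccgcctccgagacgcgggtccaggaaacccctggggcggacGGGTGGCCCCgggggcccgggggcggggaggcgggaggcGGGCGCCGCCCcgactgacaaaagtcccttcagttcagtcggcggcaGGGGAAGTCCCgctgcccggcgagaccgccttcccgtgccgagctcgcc

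The deposited values are on a log2 scale, with 1 value per gene and library, and lay between -2.40 and 19.81. Neither the labels nor the methods state the transformation behind them, so differences are stated on this scale and not as linear fold changes, and the depth of each library is unknown. The 8 macrophage markers were all tested and their summed level was 18.35 to 19.23 in every library, whereas no B cell or T cell marker passed the filter. Of 7 neutrophil markers 5 were tested. The neutrophil sums given here and below are over all 7. They were 6.23 to 7.73 in WT, 6.12 to 7.53 in Map3k8 D270A/D270A, and 10.04 to 11.04 in Elk1-/-Elk4-/- libraries. Elk1 averaged 9.14 in unstimulated WT and 6.36 in unstimulated Elk1-/-Elk4-/- cells, and Elk4 7.72 and 5.71. Map3k8, at 8.94 in WT and 8.84 in Map3k8 D270A/D270A cells without LPS, does not check a point mutation by its level. The methods call the libraries biological replicates, and the labels do not name separate animals or cultures, so p values measure the spread between these samples. In bulk RNA a gene that is lower in each cell cannot be told apart from one that is expressed by fewer cells.

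The WT libraries fell into sets by replicate number for most IκB genes after LPS. At 0.5 h replicates 4 to 6 were below replicates 7 to 9 without overlap for 5 genes (19.8% of all genes did so): Nfkbiz was 13.52 to 13.64 against 14.44 to 14.49, and Nfkbia was 14.62 to 14.70 against 15.07 to 15.17. Nfkbib was 9.89 to 9.98 against 10.31 to 10.33, Nfkbie 9.73 to 9.94 against 10.07 to 10.14, and Nfkbid 10.39 to 10.77 against 10.95 to 11.45. At 1 h the order was the opposite, again without overlap, for all 6 genes (18.4% of all genes), as for Nfkbib, at 11.81 to 11.89 in replicates 4 to 6 and 11.55 to 11.62 in replicates 7 to 9. What separates these sets is not given in the labels, and its part in the results was not tested. The WT libraries at 2 h are replicates 4 to 7. Where a called difference of an IκB gene printed here turned its sign or lost its call with 1 WT set as the controls, the value with that set is given. Other genes were not checked in this way. At 2 h the second set is a single library, so differences from it have no spread of their own and any test of them assumes that it varies like the other groups. They are given here as values.

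**Figure D1:**
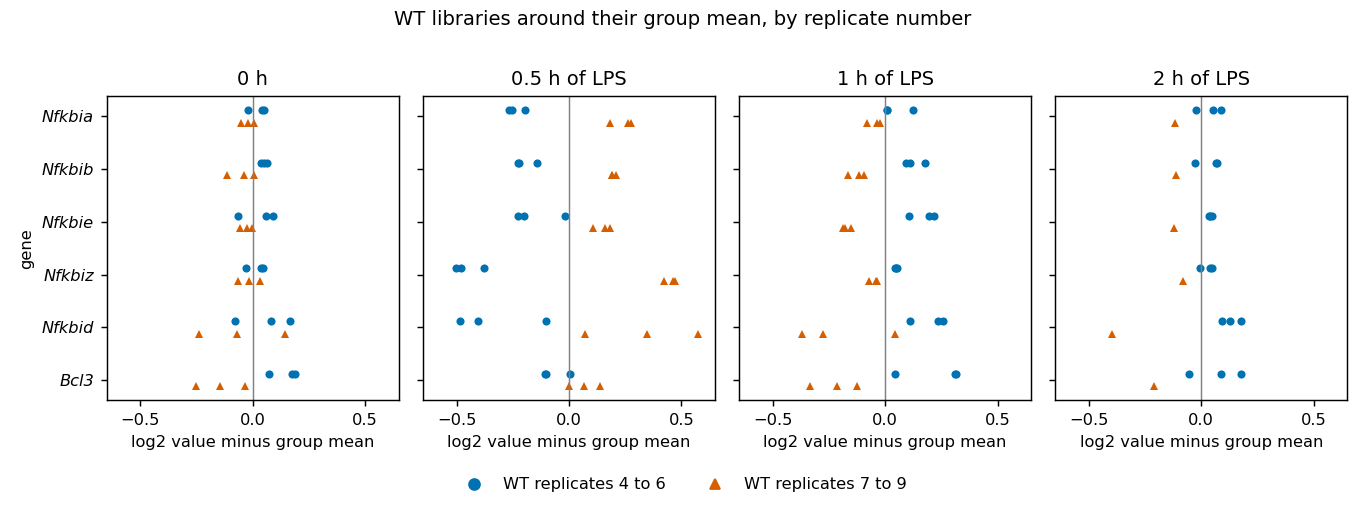
Deposited log2 value minus the mean of all WT libraries of the same LPS time (x axis) for the 6 IκB genes (y axis), 1 point per WT library, with replicates 4 to 6 as circles and 7 to 9 as triangles. At 0.5 h replicates 7 to 9 lie to the right of replicates 4 to 6 in 5 genes, by the most in Nfkbiz (levels of 14.44 to 14.49 against 13.52 to 13.64), and at 1 h they lie to the left of them.

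LPS raised all 6 genes in WT BMDMs at every time, with no overlap between libraries with and without LPS at 0.5, 1, or 2 h. Among all genes tested 8.19% were higher at 0.5 h, 24.3% at 1 h, and 34.9% at 2 h (limma, adjusted p below 0.05). The median difference of the 6 genes was 1.34, 2.72, and 3.17 at the 3 times, beside -0.0042, 0.0006, and -0.0178 over all genes. The genes differed in their timing. Nfkbia, Nfkbiz, and Nfkbid were already high at 0.5 h, whereas Nfkbib, Nfkbie, and Bcl3 had moved by 0.50, 0.45, and 0.46.

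Nfkbia, the gene of the main rapid feedback inhibitor, was 11.67 at the lowest, 11.72 at the median, and 11.77 at the highest in unstimulated WT libraries. After 0.5 h it was 14.62, 14.89, and 15.17, after 1 h 15.06, 15.13, and 15.26, and in the 4 libraries at 2 h 14.98, 15.09, 15.05, and 14.89. The differences from unstimulated cells were 3.17 ± 0.05 (SE), 3.42 ± 0.05, and 3.28 ± 0.06, so most of its rise was complete at 0.5 h. From 0.5 to 1 h it rose further by 0.25 (adjusted p = 1.42e-05), with a mean step of 0.53 in replicates 4 to 6 and -0.039 in replicates 7 to 9, and at 2 h it was below 1 h by -0.14 (adjusted p = 0.0221), with overlapping ranges in both steps.

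Nfkbib, whose product is resynthesized more slowly, was 9.50, 9.64, and 9.68 (lowest, median, highest) without LPS, 9.89, 10.14, and 10.33 at 0.5 h, 11.55, 11.71, and 11.89 at 1 h, and 12.14, 12.23, 12.24, and 12.06 at 2 h. Nfkbie, the inhibitor with delayed feedback kinetics, was 9.44, 9.49, and 9.60 without LPS, 9.73, 10.00, and 10.14 at 0.5 h, 11.75, 11.92, and 12.16 at 1 h, and 12.60, 12.61, 12.61, and 12.45 at 2 h. Both rose at each step without overlap. Between 1 and 2 h the further rise was 0.45 ± 0.06 for Nfkbib (adjusted p = 1.26e-09) and 0.62 ± 0.07 for Nfkbie (adjusted p = 6.53e-14), when 33.7% of all genes were higher and 32.2% lower at 2 h than at 1 h.

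Nfkbiz, the gene of the nuclear coactivator IκBζ, had the largest rise of the family, from 10.57, 10.64, and 10.68 without LPS to 13.52, 14.04, and 14.49 at 0.5 h and 15.05, 15.13, and 15.18 at 1 h, a difference of 4.49 ± 0.08 at 1 h. At 2 h it was 14.22, 14.23, 14.18, and 14.10, all below the 1 h libraries. Nfkbid, the gene of the nuclear inhibitor IκBNS, was 8.46, 8.71, and 8.87 without LPS, 10.39, 10.86, and 11.45 at 0.5 h, and 11.34, 11.79, and 11.97 at 1 h. It was back to 10.18, 10.23, 10.14, and 9.66 at 2 h, a fall by 1.66 from 1 h (SE 0.11, adjusted p = 1.23e-25), beside a fall by 0.94 for Nfkbiz (SE 0.09, adjusted p = 1.08e-16). Both were therefore transient at these times, with Nfkbid still 1.35 above unstimulated cells at 2 h.

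Bcl3 was the latest of the 6. It was 8.45, 8.72, and 8.89 without LPS, 9.06, 9.17, and 9.30 at 0.5 h, and 10.14, 10.43, and 10.79 at 1 h. At 2 h it stood at 12.01, 12.15, 12.24, and 11.85, which was 1.59 ± 0.10 above 1 h (adjusted p = 1.04e-27), the largest rise after 1 h in the family. In replicates 4 to 6 with mutant replicates 1 to 3 fitted alone, the early rise of Bcl3 at 0.5 h was 0.24 and did not pass (adjusted p = 0.124). All 3 late genes went on rising while Nfkbiz and Nfkbid fell.

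**Figure D2:**
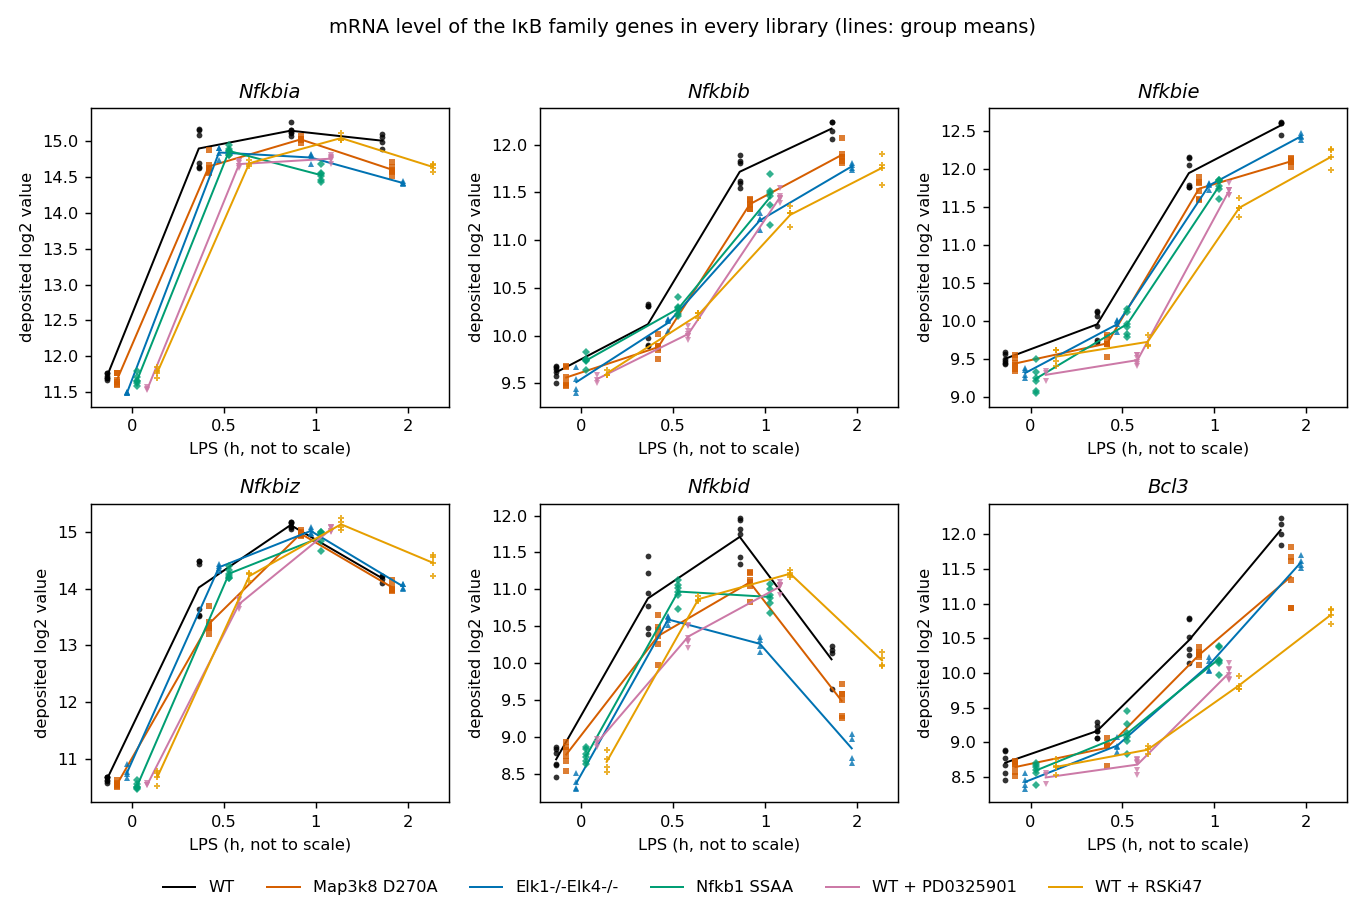
Deposited log2 value of each IκB gene against LPS time (h, not to scale, groups offset) in every library, with a line through the means of each genotype or inhibitor group; the inhibitor groups at 0 h are 10 min of PD0325901 or RSKi47 alone. All genes are higher at 1 h than without LPS in every group, Nfkbid and Nfkbiz peak at 1 h in WT cells, and Bcl3, Nfkbib, and Nfkbie are highest at 2 h.

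To compare the genes with each other, the log2 of the length in kilobases of the longest RefSeq mRNA matched to each was subtracted from its level (1578 bases for Nfkbia, 2061 for Nfkbib, 2435 for Nfkbie, 4115 for Nfkbiz, 2039 for Nfkbid, and 1850 for Bcl3), on the assumption that the values were not already corrected for length. On this per-kilobase log2 scale Nfkbia was the most abundant in WT cells at every time, at a level of 11.06 without LPS and 14.24, 14.48, and 14.34 at 0.5, 1, and 2 h. Nfkbiz (8.60), Nfkbib (8.57), and Nfkbie (8.22) came next without LPS, followed by Bcl3 (7.82) and Nfkbid (7.67), and the neighbours Nfkbiz and Nfkbib, and Bcl3 and Nfkbid, did not differ beyond their spread. At 0.5 h the order was Nfkbia, Nfkbiz (11.98), Nfkbid (9.85), Nfkbib (9.08), Nfkbie (8.68), and Bcl3 (8.28). At 1 h Nfkbiz stood second at 13.08. Nfkbid (10.68), Nfkbib (10.67), and Nfkbie (10.66) were not separated beyond their spread at that time, and Bcl3 was lowest at 9.58. At 2 h Nfkbid had become the lowest at 9.03, and Nfkbie (11.28), Bcl3 (11.17), and Nfkbib (11.12) lay together below Nfkbiz (12.14).

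In Map3k8 D270A/D270A cells without LPS no difference from WT was detected in the 6 genes, of which 0 passed limma's test and 0 had an unadjusted p below 0.05 (1.71% of all genes passed in either direction). With LPS, 5 genes were lower than in WT at 0.5 h (1.11% of all genes were lower), 3 at 1 h (4.8%), and 5 at 2 h (13.6%), and none was higher. The median difference of the 6 genes was -0.06, -0.25, -0.21, and -0.44 at 0, 0.5, 1, and 2 h, beside -0.0026, -0.0075, -0.0008, and 0.0116 for all genes. LPS still raised all 6 in the mutant cells at each time. Of the 5 neutrophil markers 0 passed the test in the mutant at any time, and of the 8 macrophage markers 0, 0, 1, and 3 were lower at the 4 times. At 2 h both tested dendritic cell markers (Zbtb46 and Ccr7) were lower too, and the part of these markers in the results was not tested.

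At 2 h the largest difference was in Bcl3. Its values in Map3k8 D270A/D270A cells were 11.81, 11.61, 11.67, 11.34, 10.94, and 10.94, all below the 4 WT libraries (11.85 to 12.24), a difference of -0.67 ± 0.10 (adjusted p = 2.39e-08). Replicates 1 to 3 of the mutant were higher than replicates 4 to 6 at this time. Nfkbie was 12.02, 12.10, and 12.14 (lowest, median, highest), all below the lowest WT value of 12.45 (-0.47 ± 0.07, adjusted p = 1.86e-08), and Nfkbia was 14.50, 14.59, and 14.70, all below 14.89 (-0.40 ± 0.06, adjusted p = 3.43e-09). Nfkbib was lower by -0.28 ± 0.06 (adjusted p = 3.94e-04), with mutant replicate 4 at 12.07 just inside the WT range. Nfkbiz did not pass the test (-0.16, adjusted p = 0.178).

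Nfkbid was lower at all 3 LPS times in Map3k8 D270A/D270A cells. At 1 h it was 10.83, 11.12, and 11.23, with no overlap with WT (11.34 to 11.97), a difference of -0.62 ± 0.10 (adjusted p = 1.17e-06). At 0.5 h the difference was -0.51 (adjusted p = 2.64e-04) and at 2 h -0.56 (adjusted p = 2.52e-05), both with overlap. Nfkbib was also lower at 1 h without overlap (11.33, 11.37, and 11.43 against 11.55 to 11.89, -0.34 ± 0.06, adjusted p = 4.36e-06). Nfkbie was lower at 1 h by -0.20 (adjusted p = 0.0173), a call that was lost without WT replicate 4, 5, or 6 (-0.17, -0.18, and -0.16) or mutant replicate 5 or 6 (-0.18 each). Bcl3 at 1 h (-0.21, adjusted p = 0.116) passed without WT replicate 8 (-0.28) and in WT replicates 4 to 6 with mutant replicates 1 to 3 fitted alone (-0.39). Nfkbia (-0.12, adjusted p = 0.109) and Nfkbiz (-0.15, adjusted p = 0.25) did not pass at 1 h over all replicates. Nfkbiz did not overlap with WT at this time, at 15.03 at the highest in the mutant and 15.05 at the lowest in WT.

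At 0.5 h the fall was largest in Nfkbiz, from 13.52, 14.04, and 14.49 in WT to 13.19, 13.33, and 13.69, a difference of -0.64 ± 0.08 (adjusted p = 1.39e-09) with overlapping ranges. The replicates were also compared in a first set of WT replicates 4 to 6 with mutant replicates 1 to 3 and a second set of WT replicates 7 to 9 with mutant replicates 4 to 6. No label ties these mutant replicates to these WT replicates, and the sets follow only the order of the numbers. In the first set Nfkbiz was lower by -0.28 (adjusted p = 0.0059), and in the second by -0.999. The other genes lower at 0.5 h passed only in the second of these sets: Nfkbia -0.07 and -0.43, Nfkbib -0.05 and -0.43, Nfkbie -0.07 and -0.43, and Nfkbid -0.17 and -0.85 in the first and second set. Over all replicates the 0.5 h differences were -0.25 for Nfkbia (adjusted p = 4.10e-04), -0.24 for Nfkbib (adjusted p = 0.00671), and -0.25 for Nfkbie (adjusted p = 0.00865). Those of Nfkbib and Nfkbie were lost without 1 library, WT replicate 7 or 8 for Nfkbib (-0.20 each) and WT replicate 8 or mutant replicate 6 for Nfkbie (-0.21 each). At 1 h Nfkbid was lower in both sets (-0.79 and -0.45), as was Nfkbib (-0.43 and -0.25), whereas the other 4 genes passed in the first only, at -0.28 and -0.13 for Nfkbie, -0.39 and -0.04 for Bcl3, -0.21 and -0.09 for Nfkbiz, and -0.18 and -0.06 for Nfkbia. At 2 h Bcl3 (-0.43), Nfkbia (-0.45), Nfkbie (-0.49), Nfkbid (-0.56), and Nfkbib (-0.36) were lower in the first set. The second set holds a single WT library at this time, and its values, without a test, were -0.78, -0.28, -0.37, -0.30, and -0.12 in the same order.

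**Figure D3:**
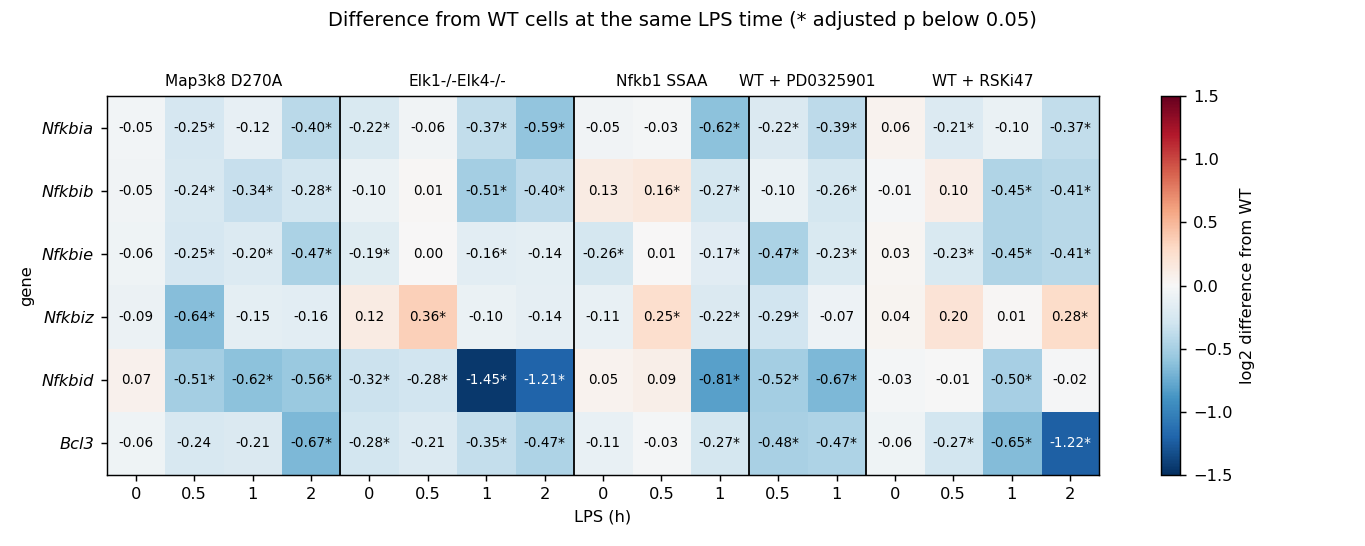
Difference from WT of each IκB gene (rows) in each genotype or inhibitor group at each LPS time (columns), as log2 difference of means printed in each cell and shown by color, blue for lower and red for higher; asterisks mark adjusted p below 0.05 (limma), and RSKi47 at 0 h is 10 min of the inhibitor alone. Nfkbid is lower in all 5 groups at 1 h, by the most in Elk1-/-Elk4-/- cells (-1.45), and Bcl3 is lower in all 3 groups at 2 h, by the most with RSKi47 (-1.22).

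In Elk1-/-Elk4-/- BMDMs 4 of the 6 genes were lower than in WT without LPS (25.4% of all genes were lower), 5 at 1 h (26.9%), and 4 at 2 h (23.8%). At 0.5 h 1 gene was lower and 1 higher (46.4% of all genes passed in either direction). All 5 neutrophil markers tested were higher in these cells than in WT at each time. The summed level of all 7 listed was 10.04 to 11.04 against 6.23 to 7.73. Elane and Mpo, made by immature neutrophils, had levels of 2.23 or less in every group of the study and did not pass the filter. Of the 8 macrophage markers 2, 2, 2, and 1 were higher and 2, 2, 3, and 2 lower at the 4 times. Of the dendritic cell markers 1 was higher at 0.5 h and both were lower at 2 h. The part of these markers in the results was not tested. The differences reach all times and a large share of genes. The LPS responses given further on remove a constant offset. They do not remove a difference between experiments that changes with LPS time.

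The largest difference of any IκB gene from WT was that of Nfkbid in Elk1-/-Elk4-/- cells at 1 h. Its values there were 10.35, 10.31, 10.23, and 10.16, all below the lowest WT value of 11.34, and the difference was -1.45 ± 0.11 (adjusted p = 1.64e-20). At 2 h the values were 8.65, 8.97, 8.72, and 9.05, all below the WT range of 9.66 to 10.23 (-1.21 ± 0.12, adjusted p = 1.27e-14). In the same cells Nfkbid was 10.59, 10.52, 10.62, and 10.64 at 0.5 h, so that all 4 libraries at 1 h lay below those at 0.5 h, a step that was not tested, whereas WT rose by 0.83 between these times (1.36 in replicates 4 to 6 and 0.30 in replicates 7 to 9). At 0.5 h its difference from WT was -0.28 (adjusted p = 0.0284), which was lost without WT replicate 7 or 9 (-0.22 and -0.17) or Elk1-/-Elk4-/- replicate 1 or 2 (-0.28 and -0.26) and which turned to 0.046 against WT replicates 4 to 6 alone. Without LPS it was -0.32 (adjusted p = 0.0109).

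The classical members moved less. Nfkbia was 14.77, 14.81, 14.81, and 14.68 at 1 h and 14.41, 14.41, 14.41, and 14.43 at 2 h, all below WT, with differences of -0.37 ± 0.06 (adjusted p = 1.77e-08) and -0.59 ± 0.06 (adjusted p = 4.69e-14), and it was already lower without LPS (-0.22, adjusted p = 4.42e-04). Nfkbib was lower without overlap at 1 h (-0.51 ± 0.06, adjusted p = 1.18e-10) and 2 h (-0.40 ± 0.07, adjusted p = 1.48e-06). Nfkbie was lower without LPS (-0.19, adjusted p = 0.0175, -0.16 and not passing without replicate 3 or against WT replicates 7 to 9 alone) and at 1 h (-0.16, adjusted p = 0.0377). The latter call was lost without any of WT replicates 4 to 6 or any Elk1-/-Elk4-/- replicate (-0.17 to -0.12), and its sign turned against WT replicates 7 to 9 alone (0.011). At 2 h Nfkbie did not pass (-0.14, adjusted p = 0.1).

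Bcl3 was lower without LPS (-0.28, adjusted p = 0.0145, -0.24 and not passing without Elk1-/-Elk4-/- replicate 4), at 1 h (-0.35, adjusted p = 0.00158), and at 2 h (-0.47, adjusted p = 1.64e-04). The 2 h values of 11.55, 11.61, 11.51, and 11.70 were all below WT. The differences without LPS and at 1 h did not pass against WT replicates 7 to 9 alone (-0.13 each), and against the single WT library of replicate 7 at 2 h the difference was -0.25. Nfkbiz was higher at 0.5 h (0.36 ± 0.09, adjusted p = 6.43e-04), at 14.36, 14.32, 14.40, and 14.44, within the WT range. Against WT replicates 7 to 9 alone it was -0.09 and did not pass, and it did not pass over all replicates at the other times (0.12, -0.10, and -0.14). At 2 h Nfkbiz did not overlap with WT, at 14.09 at the highest in Elk1-/-Elk4-/- cells and 14.10 at the lowest in WT.

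In Nfkb1 SSAA/SSAA BMDMs, whose p105 cannot release TPL-2 after IKK activation, 1 of the 6 genes was lower than in WT without LPS (15.1% of all genes were lower), 2 were higher at 0.5 h (16.7% were higher), and all 6 were lower at 1 h (21.9% were lower). Of the 5 neutrophil markers 0, 0, and 3 were higher at these times, at a summed level of 6.72 to 8.34. Of the 8 macrophage markers 2 were higher and 2 lower at each time, and of the dendritic cell markers 1 was higher and 1 lower at 1 h. The part of these markers in the results was not tested. Nfkbid and Nfkbia had the largest differences at 1 h. Nfkbid was 10.68, 10.91, and 11.07 (lowest, median, highest), all below WT (11.34 to 11.97), by -0.81 ± 0.10 (adjusted p = 3.49e-11). It had a mean of 10.97 at 0.5 h and 10.90 at 1 h, a step that was not tested, beside the rise by 0.83 in WT (1.36 in replicates 4 to 6 and 0.30 in replicates 7 to 9). Nfkbia was 14.42, 14.52, and 14.67, all below the WT range of 15.06 to 15.26, by -0.62 ± 0.05 (adjusted p = 1.43e-19), after a difference of -0.03 at 0.5 h (adjusted p = 0.638) that was 0.21 against WT replicates 4 to 6 (adjusted p = 9.77e-05) and -0.27 against WT replicates 7 to 9 (adjusted p = 2.16e-07).

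The other 4 genes differed less in Nfkb1 SSAA/SSAA cells. At 1 h Nfkbib was lower by -0.27 (adjusted p = 7.60e-05), Bcl3 by -0.27 (adjusted p = 0.0108), Nfkbiz by -0.22 (adjusted p = 0.0237), and Nfkbie by -0.17 (adjusted p = 0.0194). The call of Bcl3 was lost without WT replicate 4 or 6 (-0.20 each), that of Nfkbie without WT replicate 4, 5, or 6 or mutant replicate 3 (-0.15 to -0.13), and that of Nfkbiz without mutant replicate 2 (-0.17). Against WT replicates 7 to 9 alone Bcl3 was at -0.04 and Nfkbie at 0.0039. At 0.5 h Nfkbiz was higher by 0.25 (adjusted p = 0.0125) and Nfkbib by 0.16 (adjusted p = 0.0218). Both calls were lost without WT replicate 4, 5, or 6 (0.15, 0.15, and 0.17 for Nfkbiz, 0.12 to 0.14 for Nfkbib), and that of Nfkbib also without mutant replicate 1. Both signs turned against WT replicates 7 to 9 (-0.21 for Nfkbiz and -0.03 for Nfkbib). Without LPS only Nfkbie was lower (-0.26, adjusted p = 3.73e-04).

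With PD0325901, which blocks MKK1/2 and thus ERK1/2 activation, 5 genes were lower than in WT with LPS at 0.5 h (15% of all genes were lower) and 5 at 1 h (19.3%). All 5 neutrophil markers tested were higher with PD0325901 and LPS than in WT with LPS, at a summed level of 8.08 to 8.81, and 1 of 2 dendritic cell markers was higher at 0.5 and 1 h. Of the 8 macrophage markers 1 was higher at both times, and 1 and 2 were lower. The part of these markers in the results was not tested. At 1 h Nfkbid was 10.92, 11.05, and 11.11 (lowest, median, highest), all below WT (-0.67 ± 0.10, adjusted p = 3.27e-08), and Nfkbia was 14.68, 14.76, and 14.81, all below WT (-0.39 ± 0.05, adjusted p = 3.75e-10). Nfkbib was lower without overlap (-0.26, adjusted p = 1.39e-04), Bcl3 by -0.47 (adjusted p = 1.18e-05), and Nfkbie by -0.23 (adjusted p = 0.00212). The last 2 classical differences did not pass against WT replicates 7 to 9 alone, at -0.14 for Nfkbib and -0.05 for Nfkbie. Nfkbiz did not pass at 1 h (-0.07, adjusted p = 0.496). For Nfkbia the mean without LPS was 11.45 after 70 min of PD0325901 and 11.72 in WT, a difference that was not tested. The LPS response of Nfkbia differed from that of WT by -0.12 at 1 h (limma, adjusted p = 0.572). At 0.5 h it differed by 0.05 (adjusted p = 0.949), and neither passed.

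At 0.5 h with PD0325901 Bcl3 and Nfkbie were the genes without overlap. Bcl3 was 8.54, 8.71, and 8.76, against 9.06 to 9.30 in WT (-0.48 ± 0.09, adjusted p = 9.10e-06), and Nfkbie was 9.41, 9.49, and 9.55, against 9.73 to 10.14 (-0.47 ± 0.06, adjusted p = 1.48e-09). Nfkbid was lower by -0.52 (adjusted p = 2.45e-05), Nfkbia by -0.22 (adjusted p = 4.04e-04), and Nfkbiz by -0.29 (adjusted p = 0.00363). The call of Nfkbiz was lost without WT replicate 7 or 9 (-0.20 each), and its sign and that of Nfkbia turned against WT replicates 4 to 6 alone (0.16 and 0.02), where Nfkbid was at -0.19 and did not pass.

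PD0325901 without LPS gave few called differences. The DMSO libraries themselves were below WT without LPS in Nfkbia (-0.17, adjusted p = 0.0291) and Nfkbie (-0.23, adjusted p = 0.0186), each without overlap, when 11.1% of all genes were lower. Nfkbiz did not overlap either (10.49 to 10.55 with DMSO against 10.57 to 10.68 in WT) and did not pass. After 10 min 0 of 6 passed limma's test against DMSO and 0 had an unadjusted p below 0.05, and 0% of all genes passed. At 40 min Nfkbid was lower than at 10 min, at 8.34, 8.51, and 8.33 against 8.92, 8.97, and 8.86 (-0.52 ± 0.14, adjusted p = 0.0166), when 2.26% of all genes were lower. At 70 min Nfkbie was lower, at 8.98, 8.93, and 8.86 against 9.34, 9.33, and 9.22 (-0.37 ± 0.09, adjusted p = 0.00226), when 3.47% were lower. The libraries did not overlap in either comparison. At 70 min the other 5 genes did not overlap with 10 min either and did not pass, with differences of -0.37 for Nfkbid (adjusted p = 0.101), 0.31 for Bcl3 (adjusted p = 0.13), 0.15 for Nfkbib (adjusted p = 0.358), -0.13 for Nfkbiz (adjusted p = 0.631), and -0.097 for Nfkbia (adjusted p = 0.537). Of all genes 34.2% did not overlap between these times. At 40 min Nfkbia (-0.085) and Nfkbiz (-0.058) also did not overlap with 10 min and did not pass, when 30.5% of all genes did not overlap.

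RSKi47, which inhibits the ERK-activated kinase RSK, gave no detectable difference without LPS, where 0 of the 6 genes passed limma's test and 0 had an unadjusted p below 0.05 (53% of all genes passed in either direction). With LPS 3 genes were lower at 0.5 h (24.5% of all genes were lower), 4 at 1 h (26.3%), and 4 at 2 h (24.6%), and 1 was higher at 2 h. Of the 5 neutrophil markers 4 were higher than in WT without LPS and at 0.5 h, and 5 at 1 and 2 h, at a summed level of 7.08 to 8.59 over all RSKi47 libraries, and the fibroblast marker tested, Col1a1, was higher at each time. Of the 8 macrophage markers 2, 3, 2, and 2 were higher and 2 lower at each time. Of the dendritic cell markers 1 was higher without LPS and at 0.5 and 1 h, and 1 was lower at 1 and 2 h. The part of these markers in the results was not tested.

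Bcl3 had the largest difference with RSKi47. At 2 h it was 10.84, 10.92, 10.90, and 10.70, all far below the WT values of 12.01, 12.15, 12.24, and 11.85 (-1.22 ± 0.11, adjusted p = 2.39e-17). At 1 h it was 9.76, 9.82, 9.95, and 9.76, also below all WT libraries (-0.65 ± 0.10, adjusted p = 3.27e-08). At 0.5 h it was lower by -0.27 (adjusted p = 0.0321), a call that was lost without WT replicate 7 or RSKi47 replicate 1 or 2 (-0.27 to -0.24) and against WT replicates 4 to 6 alone (-0.20). The 2 h difference was -1.29 against WT replicates 4 to 6 (adjusted p = 5.78e-19) and -1.01 against the single library of WT replicate 7.

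Nfkbib and Nfkbie were lower with RSKi47 at 1 h (-0.45 each, adjusted p = 4.53e-09 and 2.27e-08) and 2 h (-0.41 each, adjusted p = 5.69e-07 and 2.25e-06), all without overlap. Nfkbia was lower without overlap at 2 h only (-0.37, adjusted p = 2.83e-07), after -0.21 at 0.5 h (adjusted p = 0.00342) and -0.10 at 1 h (adjusted p = 0.113). The 0.5 h difference of Nfkbia was 0.034 and did not pass against WT replicates 4 to 6 alone, and the 1 h difference passed against them (-0.15). Nfkbie at 0.5 h (-0.23, adjusted p = 0.00806) did not pass without RSKi47 replicate 1 (-0.20) or against WT replicates 4 to 6 alone (-0.081). Nfkbid was lower at 1 h, at 11.20, 11.26, 11.17, and 11.23 (-0.50 ± 0.11, adjusted p = 8.73e-05), and differed by -0.01 at 0.5 h and -0.02 at 2 h, neither of which passed. The 0.5 h difference of Nfkbid was 0.32 against WT replicates 4 to 6 and -0.34 against replicates 7 to 9, both passing, and the 2 h difference was 0.38 against WT replicate 7. Nfkbiz was the gene that was higher at 2 h, at 14.45, 14.59, 14.56, and 14.22 against 14.10 to 14.23 (0.28 ± 0.10, adjusted p = 0.0144), which was lost without RSKi47 replicate 2 or 3 (0.23 and 0.24).

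To set aside differences present before LPS, the LPS response of each group (LPS minus the same cells without LPS) was compared with that of WT. The cells with PD0325901 and LPS were set against PD0325901 alone for the same total time, 40 and 70 min. Those with RSKi47 and LPS were set against 10 min of RSKi47 alone at every LPS time. In their responses LPS and a longer time with the inhibitor cannot be told apart. Of 78 such differences of response (6 genes in 13 comparisons that share the WT libraries) 26 passed as smaller responses and 1 as a larger one. Of all genes 0.0251% to 10.4% had a smaller response in the single comparisons. Nfkbib and Nfkbid each had 7 smaller responses of 13, Nfkbia and Bcl3 4, Nfkbie 3 with the 1 larger, and Nfkbiz 1.

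The responses at 2 h were smaller for 4 genes in Map3k8 D270A/D270A cells (9.46% of all genes had a smaller response), 3 in Elk1-/-Elk4-/- cells (9.29%), and 4 with RSKi47 (10.4%). Nfkbia had a smaller response in all 3 groups at 2 h, by -0.36, -0.36, and -0.42 (adjusted p = 1.26e-04, 5.20e-04, and 3.96e-05). Bcl3 had a smaller response in Map3k8 D270A/D270A cells (-0.61, adjusted p = 2.43e-04) and with RSKi47 (-1.16 ± 0.15, adjusted p = 6.51e-10), and not in Elk1-/-Elk4-/- cells (-0.19, adjusted p = 0.41). Nfkbid had a smaller response in Map3k8 D270A/D270A (-0.63, adjusted p = 8.89e-04) and Elk1-/-Elk4-/- cells (-0.88, adjusted p = 2.03e-05), while with RSKi47 the difference was 0.02 (95% interval -0.31 to 0.35). Nfkbie had a smaller response in Map3k8 D270A/D270A cells (-0.41, adjusted p = 4.25e-04) and with RSKi47 (-0.44, adjusted p = 6.05e-04), beside 0.04 in Elk1-/-Elk4-/- cells. Nfkbib had a smaller response with RSKi47 (-0.40, adjusted p = 8.93e-04) and in Elk1-/-Elk4-/- cells (-0.29, adjusted p = 0.0211), the latter lost without Elk1-/-Elk4-/- replicate 2 or 3 (-0.27 and -0.24). In the first set of WT and Map3k8 D270A/D270A replicates the 2 h response of Bcl3 did not pass (-0.29, adjusted p = 0.113). In the second set, with its single WT library at 2 h, the values were -0.79 for Bcl3, -0.20 for Nfkbia, -0.30 for Nfkbie, and -0.40 for Nfkbid. Against WT replicates 7 to 9, again with 1 library at 2 h, the responses were -0.54 for Nfkbid and -0.23 for Nfkbib in Elk1-/-Elk4-/- cells and -0.35 for Nfkbie with RSKi47.

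At 1 h smaller responses were found for 2 genes in Map3k8 D270A/D270A cells (1.56% of all genes had a smaller response), 2 in Elk1-/-Elk4-/- cells (1.05%), 3 in Nfkb1 SSAA/SSAA cells (4.3%), and 3 with RSKi47 (3.27%). With PD0325901 3 were smaller and 1 larger (3.58% of all genes passed in either direction). Nfkbib had a smaller response in all 5 groups, from -0.44 with RSKi47 (adjusted p = 4.49e-04) to -0.29 in Map3k8 D270A/D270A cells (adjusted p = 0.0345). Of these the Map3k8 D270A/D270A call was lost without WT replicate 4, 5, or 6 or mutant replicate 2, 3, or 6 (-0.29 to -0.26) and in the second set of replicates (-0.16), the Elk1-/-Elk4-/- call (-0.41) without replicate 3 (-0.36), and the PD0325901 call (-0.34) without replicate 1 (-0.29). The larger response was that of Nfkbie with PD0325901 (0.36, adjusted p = 0.0163), whose level without LPS had fallen at 70 min, and it was lost without PD0325901 replicate 3 (0.32) and against WT replicates 4 to 6 (0.21). Nfkbie had a smaller response with RSKi47 (-0.48, adjusted p = 2.97e-04). Nfkbia had a smaller response in Nfkb1 SSAA/SSAA cells (-0.57, adjusted p = 3.91e-10), and Bcl3 with RSKi47 (-0.59, adjusted p = 0.00289) and PD0325901 (-0.57, adjusted p = 0.00509, -0.51 and not passing without replicate 1). Against WT replicates 7 to 9 alone the responses of Bcl3 (-0.49) and Nfkbib (-0.26) with PD0325901 and of Nfkbie (-0.34) and Bcl3 (-0.51) with RSKi47 did not pass at 1 h.

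Of the times measured in all 5 groups, 0.5 and 1 h, only Nfkbid at 1 h had the libraries of every group below WT without overlap. At 2 h, measured in 3 groups, Nfkbia and Bcl3 did so in all 3. Of all genes tested 0.0835% at 0.5 h and 0.276% at 1 h did so in all 5 groups, and 2.46% at 2 h in all 3, and the groups share the WT libraries. The level differed by -1.45 in Elk1-/-Elk4-/- cells, -0.81 in Nfkb1 SSAA/SSAA cells, -0.67 with PD0325901, -0.62 in Map3k8 D270A/D270A cells, and -0.50 with RSKi47. These differences share the WT libraries. With WT replicates 4 to 6 as controls the 4 groups outside the TPL-2 experiment were at -1.65, -1.01, -0.87, and -0.70, and with WT replicates 7 to 9 at -1.25, -0.61, -0.47, and -0.30, in the order Elk1-/-Elk4-/-, Nfkb1 SSAA/SSAA, PD0325901, and RSKi47, and each passed the test (adjusted p = 0.0138 at the highest). The response of Nfkbid to 1 h of LPS was smaller by -1.13 ± 0.16 in Elk1-/-Elk4-/- cells (adjusted p = 1.49e-07), by -0.86 in Nfkb1 SSAA/SSAA cells (adjusted p = 1.72e-06), and by -0.68 in Map3k8 D270A/D270A cells (adjusted p = 5.93e-04). Within WT replicates 7 to 9 and mutant replicates 4 to 6 alone the last of these was -0.54 and did not pass (adjusted p = 0.0692). With PD0325901 it was smaller by -0.51 (adjusted p = 0.0426), and this call was lost without WT replicate 4, 5, or 6 or PD0325901 replicate 1, 2, 4, or 5 (-0.52 to -0.42) and was -0.37 against WT replicates 7 to 9. With RSKi47 the difference of -0.46 did not pass (adjusted p = 0.0631), but it passed with the replicate numbers within each group as a block (adjusted p = 0.022) and without WT replicate 7, 8, or 9 (-0.51 to -0.48). It was -0.61 against WT replicates 4 to 6 (adjusted p = 0.00243) and -0.32 against replicates 7 to 9 (adjusted p = 0.474).

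**Figure D4:**
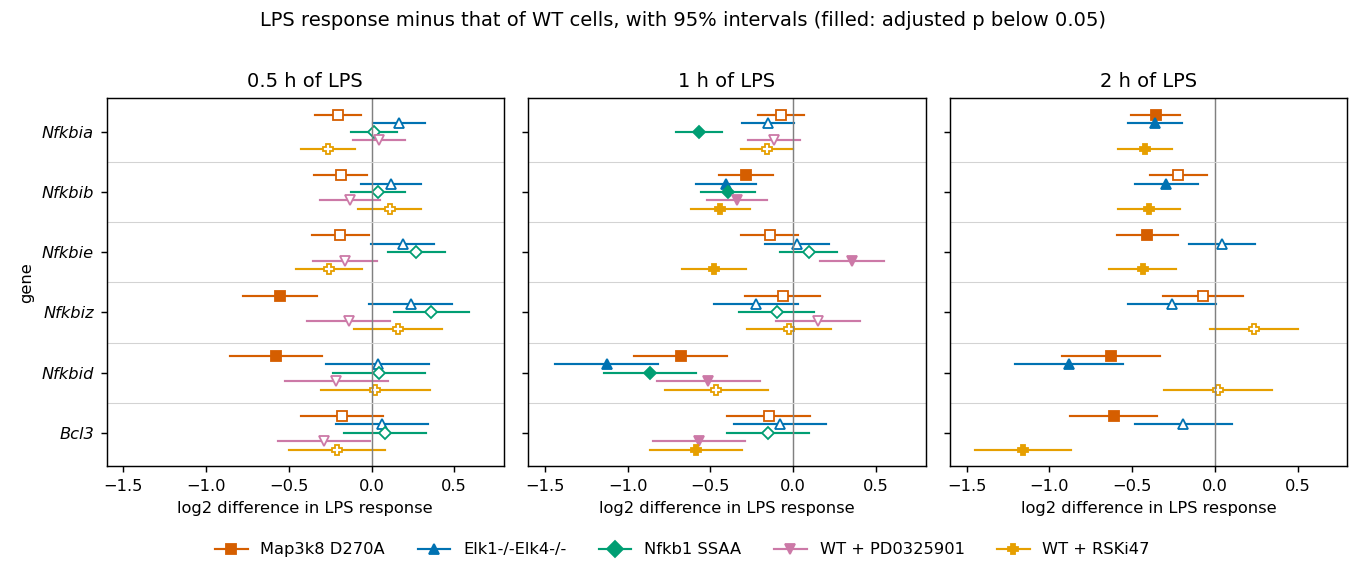
Difference in LPS response from WT (log2) of each IκB gene for each group and LPS time, as points with 95% intervals from limma; filled points have an adjusted p below 0.05. Nfkbia, Nfkbib, Nfkbid, and Bcl3 lie below 0 in all 5 groups at 1 h, Bcl3 is lowest with RSKi47 at 2 h (-1.16), and Nfkbie with PD0325901 at 1 h is the only called point above 0 (0.36).

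At 0.5 h few responses differed. In Map3k8 D270A/D270A cells 2 genes had smaller responses (0.175% of all genes): Nfkbiz by -0.55 (adjusted p = 0.00345) and Nfkbid by -0.57 (adjusted p = 0.0494). The call of Nfkbiz was lost without WT replicate 7 or 9 (-0.46 and -0.45), and that of Nfkbid without any of WT replicates 7 to 9 or any mutant replicate (-0.60 to -0.49). In the first set of replicates neither passed (-0.21 for Nfkbiz and -0.20 for Nfkbid). Neither passed in a fit of the 62 WT, Map3k8 D270A/D270A, and Elk1-/-Elk4-/- libraries alone. Without the filter, or with median centring, only 1 of them passed. In Elk1-/-Elk4-/-, Nfkb1 SSAA/SSAA, PD0325901, and RSKi47 cells 0 genes passed limma's test at 0.5 h, with 1, 2, 1, and 2 genes at an unadjusted p below 0.05. Of all genes 0.109%, 0.309%, 1.49%, and 0.0251% passed in either direction, so 0 of 6 is near the share over all genes. These counts changed with the WT set: against WT replicates 4 to 6 the response of Nfkbiz was larger in all 4 groups (0.71, 0.83, 0.33, and 0.63), and against WT replicates 7 to 9 the responses of Nfkbiz (-0.61) and Nfkbid (-0.60) were smaller with PD0325901.

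The groups were also compared with Map3k8 D270A/D270A cells directly, a comparison added after the data were seen. It sets levels against each other and does not set aside differences present without LPS. At 1 h 3 genes were lower in Elk1-/-Elk4-/- than in Map3k8 D270A/D270A cells (26.2% of all genes were lower): Nfkbid by -0.83 ± 0.11 (adjusted p = 6.92e-10), Nfkbia by -0.25 (adjusted p = 7.56e-05), and Nfkbib by -0.17 (adjusted p = 0.0212), all without overlap. At 2 h 3 genes differed (51.2% of all genes passed in either direction), Nfkbid (-0.64, adjusted p = 6.96e-07) and Nfkbia (-0.18, adjusted p = 0.00413) as lower and Nfkbie as higher (0.33, adjusted p = 3.40e-05), each without overlap. At 0.5 h 4 genes were higher in Elk1-/-Elk4-/- cells (26.8% of all genes), Nfkbiz by 1.00 ± 0.09 (adjusted p = 1.28e-16) and Nfkbib (0.26), Nfkbie (0.25), and Nfkbia (0.19) by less, of which Nfkbia overlapped. Without LPS these groups were not tested against each other. Their means, with Elk1-/-Elk4-/- cells first, were 11.50 and 11.68 for Nfkbia and 8.38 and 8.76 for Nfkbid. They were 9.51 and 9.56 for Nfkbib, 9.32 and 9.45 for Nfkbie, and 10.76 and 10.55 for Nfkbiz.

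At 0.5 h 3 genes were higher with RSKi47 than in Map3k8 D270A/D270A cells (26.9% of all genes), Nfkbiz by 0.84 ± 0.10 (adjusted p = 7.04e-12), Nfkbid by 0.50 (adjusted p = 3.13e-04), and Nfkbib by 0.34 (adjusted p = 3.03e-05), without overlap. At 2 h 3 genes differed between RSKi47 and Map3k8 D270A/D270A cells (50.6% of all genes passed in either direction). Bcl3 was lower with RSKi47 (-0.55 ± 0.10, adjusted p = 2.03e-06), whereas Nfkbid (0.55 ± 0.11, adjusted p = 1.86e-05) and Nfkbiz (0.44 ± 0.09, adjusted p = 2.42e-05) were higher, and none of the 3 overlapped. At 1 h 2 genes were lower with RSKi47 (24.9% of all genes), Bcl3 (-0.43, adjusted p = 1.34e-04) and Nfkbie (-0.25, adjusted p = 0.00148). At 0.5 h 3 genes differed between PD0325901 and Map3k8 D270A/D270A cells (31.2% of all genes passed in either direction), Nfkbiz as higher (0.35, adjusted p = 3.70e-04) and Nfkbie (-0.22, adjusted p = 0.00348) and Bcl3 (-0.24, adjusted p = 0.0271) as lower, all with overlap. With 1 h of LPS 2 genes were lower with PD0325901 than in Map3k8 D270A/D270A cells (22.2% of all genes), Nfkbia (-0.27, adjusted p = 7.63e-06) and Bcl3 (-0.26, adjusted p = 0.0149), while the difference in Nfkbid was -0.06 (95% interval -0.25 to 0.14).

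Genes of the same pathway were counted from 6 lists in WT cells after 1 h of LPS, when 24.3% of all genes were higher and 23.4% lower, and in Map3k8 D270A/D270A cells, where the share of lower genes was 4.8% after 1 h and 13.6% after 2 h and that of higher genes after 2 h was 15.3%. All 5 NF-κB subunit genes were higher after LPS, and 5 of 5 were lower in the mutant at 1 h and 2 at 2 h. Their response to LPS was smaller in the mutant for 1 of 5 at 1 h and 2 at 2 h. Among them Nfkb2 (p100) was lower by -0.30 and -0.33 at 1 and 2 h, Relb by -0.16 at 1 h, and Rel by -0.39 at 1 h, while Relb (-0.11) and Rel (0.06) did not pass at 2 h. Of 9 genes for IKK subunits and IκB turnover 4 were higher and 2 lower after LPS, and in the mutant 0 passed limma's test at 1 h and 4 were higher at 2 h, such as Nkiras2 (0.12), which codes for a small GTPase-like protein that binds IκBβ. The median of that list in the mutant at 1 h was -0.0014, beside -0.26 for the subunits and -0.0008 for all genes.

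Of 8 other brakes on NF-κB 7 were higher after LPS, and 2 were lower in Map3k8 D270A/D270A cells at 1 h and 5 at 2 h (list medians -0.09 and -0.33). Tnip1, which codes for the A20 partner ABIN-1, was lower by -0.32 and -0.69, Zc3h12a, which codes for the RNase Regnase-1, by -0.29 and -0.86, and Tnip2 (ABIN-2, the partner of TPL-2 and p105) by -0.25 at 2 h. All 8 cytokine and chemokine genes tested of 9 listed were higher after LPS, and 5 were lower in the mutant at 1 h and 6 at 2 h, among them Il1b (-1.22 and -2.18), Cxcl2 (-0.80 and -1.06), and Ccl4, which passed at 2 h only (-0.33). Of 4 tested genes linked to IκBζ 3 were higher after LPS, 0 passed in the mutant at 1 h, and 2 were lower at 2 h, Lcn2 by -1.17 and Ccl2 by -0.45. Il6 did not pass in the mutant at 2 h (-0.43). Of 6 early genes of the ERK and ternary complex factor pathway, all higher after LPS, 5 were lower at 1 h and 4 at 2 h, with Egr3 at -1.69 and -0.63, Dusp5 at -1.06 and -0.56, and Ier3 at -1.32 and -0.55.

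Over the means of all 25 groups, the members with early and with late courses lay apart. Nfkbib and Nfkbie had a Pearson r of 0.986, Nfkbib and Bcl3 of 0.958, and Nfkbia and Nfkbiz of 0.979, while Nfkbid and Bcl3 had the lowest, 0.354. These values describe group means that share libraries within an experiment and vary mostly with LPS time. By the same measure the genes most like Nfkbia were Tnf (0.987), its own family member Nfkbiz (0.979), and Tnfaip3 (0.979). Nfkbib was closest to Tnfaip2 (0.996), Sod2 (0.995), and Icam1 (0.991), Nfkbie to Ehd1 (0.994), Icam1 (0.992), and Birc3 (0.991), and Nfkbiz to Tnfaip3 (0.991), Tnf (0.991), and Pim1 (0.990). Bcl3 was closest to Nfkb2 (0.988), Cish (0.987), and Mob3c (0.982). Nfkbid had less close neighbours, Junb (0.958), Cxcl2 (0.957), and Map4k5 (0.942).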

How the data were processed

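RNA from mouse BMDMs in 119 libraries was sequenced by the authors, and the deposited table holds 1 log2 value per gene and library. The submitters' processing notes name STAR 2.5.1b, RSEM 1.2.29, DESeq2 1.10.1, and build mm10. The deposited log2 values are described as normalized, and neither the labels nor the methods state their exact transformation. No counts were used, so the counting error and the depth of each library are unknown. The methods give only a typical sequencing yield. In case a log of another base was meant, a change of 0.693 was tried as a second threshold.

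Values above 25 (1 value, of no gene named here) were treated as missing. A gene was tested where its value on the linear scale reached 10 or more in 3 or more libraries (11971 of 18098), with limma 3.58.1 in R 4.3.3, in 1 fit of 25 groups, without trend, and p values were adjusted by Benjamini-Hochberg over all genes tested. Genes were called at an adjusted p below 0.05, two-sided, and ± is the SE of the fit. The procedure was tested on simulated data. Groups came from the sample labels, and 0 libraries were identical.

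The members and the lists were chosen with earlier results of these data known. Values are given for the 6 members, for up to 3 genes of each pathway list called in the most comparisons with WT, for the 3 genes with the highest correlation to each member, and for Map3k8, Elk1, and Elk4. The lists were NF-κB subunits, IKK and IκB turnover, other brakes, target cytokines, targets linked to IκBζ, and ERK and TCF early genes. Marker lists were those of macrophages, neutrophils, dendritic cells (2 of 4 tested), B cells (0 of 3), T cells (0 of 3), and fibroblasts (1 of 3), and 1 further list is not reported here.

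Alternatives were another or no filter, median centring, quantile normalization, limma with trend or robust, fewer libraries, a replicate block, sets of replicates, leaving out each replicate, and a minimum size of change. Libraries of the same replicate number deviated together with a correlation over 0.1 in every pair, the bar used here, within WT (lowest 0.16) and Nfkb1 SSAA/SSAA (0.14). The lowest was just under it within Map3k8 D270A/D270A (0.072, median 0.42) and RSKi47 (0.071, median 0.32), negative within Elk1-/-Elk4-/- (-0.22) and PD0325901 (-0.27), and the median was 0.004 over 217 pairs across groups. The numbers were thus taken to pair libraries within the first 2 groups only.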

Additional observations from a re-analysis of the deposited data

Results flagged for a closer look

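In 8 of 120 sets of 4 to 10 libraries (1 gene in 1 group), 1 library lay far from the others by Dixon's test, where chance gives about 1 in 20. The highest libraries were Map3k8 D270A/D270A replicate 4 for Nfkbia at 0.5 h (14.87) and for Nfkbib at 2 h (12.07), Elk1-/-Elk4-/- replicate 4 for Nfkbia at 2 h (14.43), and RSKi47 replicate 4 for Nfkbib after 10 min without LPS (9.64). The lowest were WT replicate 7 for Nfkbie (12.45) and Nfkbid (9.66) at 2 h, PD0325901 replicate 1 for Nfkbid at 1 h (10.92), and Map3k8 D270A/D270A replicate 6 for Bcl3 at 0.5 h (8.66). WT replicate 7 is the only library of the second WT set at 2 h.

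LPS responses that differed from that of WT by limma's test of the difference itself numbered 27 of 78. Of these 26 were smaller, and of all genes 0.0251% to 10.4% had a smaller response in the single comparisons. For Nfkbia they were -0.36 in Map3k8 D270A/D270A, -0.36 in Elk1-/-Elk4-/-, and -0.42 with RSKi47 at 2 h, and -0.57 in Nfkb1 SSAA/SSAA at 1 h. For Nfkbib at 1 h they were -0.29 in Map3k8 D270A/D270A, -0.41 in Elk1-/-Elk4-/-, -0.39 in Nfkb1 SSAA/SSAA, -0.34 with PD0325901, and -0.44 with RSKi47, and at 2 h -0.29 in Elk1-/-Elk4-/- and -0.40 with RSKi47. For Nfkbie they were -0.41 in Map3k8 D270A/D270A at 2 h, 0.36 with PD0325901 at 1 h, and -0.48 and -0.44 with RSKi47 at 1 and 2 h. Nfkbiz differed only in Map3k8 D270A/D270A at 0.5 h (-0.55). For Nfkbid the differences were -0.57, -0.68, and -0.63 in Map3k8 D270A/D270A at 0.5, 1, and 2 h, -1.13 and -0.88 in Elk1-/-Elk4-/- at 1 and 2 h, -0.86 in Nfkb1 SSAA/SSAA at 1 h, and -0.51 with PD0325901 at 1 h. For Bcl3 they were -0.61 in Map3k8 D270A/D270A at 2 h, -0.57 with PD0325901 at 1 h, and -0.59 and -1.16 with RSKi47 at 1 and 2 h. Within Map3k8 D270A/D270A the set of WT replicates 7 to 9 and mutant replicates 4 to 6 alone gave -0.54 for Nfkbid at 1 h (adjusted p = 0.0692).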

How the results depend on the processing

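The count of 6 genes raised by LPS in WT at 1 and 2 h was the same in all alternatives run, and at 0.5 h it fell to 5 in the first set of WT replicates and to 3 with a log2 change of at least 1 or 0.693. Trend, robust variance, and a filter at 100 moved no count by over 1.5 times. The pseudocount alternative was not run because the values are on a log scale. The quantile setting moved the median of all genes at 2 h of LPS in WT to -0.11. The part of depth in the precision was not tested, since the depth of each library is unknown.

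No filter and median centring each left 1 gene in the Map3k8 D270A/D270A response at 0.5 h, and quantile normalization left 1 at 1 h. Fitting 62 libraries alone gave 1 gene in Elk1-/-Elk4-/- at 0.5 h and 0 and 1 in the Map3k8 D270A/D270A responses at 0.5 and 1 h. The PD0325901 response at 1 h held 1 gene with replicates averaged in pairs. With the replicate block across groups, in which the numbers do not pair the libraries, the counts were 1 in Map3k8 D270A/D270A, 2 in Nfkb1 SSAA/SSAA, and 1 with RSKi47 at 0 h, and 1 in Nfkb1 SSAA/SSAA at 0.5 h. The replicate block within groups changed 1 call, the response of Nfkbid to 1 h of LPS with RSKi47 (-0.46, adjusted p = 0.022).

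In the first set of WT and Map3k8 D270A/D270A replicates the counts were 1 at 0.5 h, 6 at 1 h, and 0 in the response at 0.5 h, and in the second set 3 at 2 h and 4, 0, and 1 in the responses at 0.5, 1, and 2 h. WT has 1 library among replicates 7 to 9 at 2 h, so counts and passes set against it at that time assume that it varies like the other groups and say nothing of stability. The WT sets as controls for the other groups were chosen after seeing the data. Against WT replicates 4 to 6 the counts were 2 and 4 in Nfkb1 SSAA/SSAA at 0 and 0.5 h, 3 with PD0325901 at 0.5 h, and 4, 3, 2, and 1 in the 0.5 h responses of Elk1-/-Elk4-/-, Nfkb1 SSAA/SSAA, PD0325901, and RSKi47. Against WT replicates 7 to 9 they were 2, 4, and 3 in Elk1-/-Elk4-/- at 0, 0.5, and 1 h, 2 in Nfkb1 SSAA/SSAA at 0 h, 3 with PD0325901 at 1 h, and 5 with RSKi47 at 0.5 h. The responses then held 1 gene in Elk1-/-Elk4-/- at 2 h, 1 in Nfkb1 SSAA/SSAA at 0.5 h, 3 and 1 with PD0325901 at 0.5 and 1 h, and 2 and 1 with RSKi47 at 0.5 and 1 h.

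With a log2 change of at least 1 the counts were 1 in Elk1-/-Elk4-/- at 1 and 2 h, 1 with RSKi47 at 2 h, and 1 in the responses of Elk1-/-Elk4-/- at 1 h and RSKi47 at 2 h, and 0 in every other comparison of a group or response with WT that had calls. At 0.693 there was also 1 in Nfkb1 SSAA/SSAA at 1 h and 1 in the responses of Elk1-/-Elk4-/- at 2 h and Nfkb1 SSAA/SSAA at 1 h. Leaving out 1 replicate gave 3 to 5 genes in Map3k8 D270A/D270A, 1 to 2 in Elk1-/-Elk4-/-, 0 to 2 in Nfkb1 SSAA/SSAA, and 1 to 4 with RSKi47 at 0.5 h. In the responses it gave 0 to 2 in Map3k8 D270A/D270A and 0 to 1 in Nfkb1 SSAA/SSAA at 0.5 h, and 1 to 2 in Map3k8 D270A/D270A, 1 to 2 in Elk1-/-Elk4-/-, and 1 to 4 with PD0325901 at 1 h.

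The sign of 17 single differences that passed with all WT libraries or with 1 set turned with the WT set, and the cause was not tested. Against WT replicates 4 to 6 at 0.5 h Nfkbia became 0.18 in Elk1-/-Elk4-/-, 0.21 in Nfkb1 SSAA/SSAA, 0.023 with PD0325901, and 0.034 with RSKi47, Nfkbid became 0.046 in Elk1-/-Elk4-/- and 0.32 with RSKi47, and Nfkbiz with PD0325901 became 0.16 (0.33 as a response). Against WT replicates 7 to 9 at 0.5 h Nfkbib became -0.18 in Elk1-/-Elk4-/- and -0.033 in Nfkb1 SSAA/SSAA, Nfkbiz became -0.095 in Elk1-/-Elk4-/-, -0.21 in Nfkb1 SSAA/SSAA, and -0.25 with RSKi47, and the response of Nfkbia in Nfkb1 SSAA/SSAA became -0.25. At 1 h Nfkbie became 0.011 in Elk1-/-Elk4-/- and 0.0039 in Nfkb1 SSAA/SSAA, and at 2 h, against that single library, Nfkbid with RSKi47 became 0.38. A further 34 differences turned with the WT set and 88 under other alternatives without passing in either fit. Of the other values of single genes under the alternatives 123 lost and 65 gained a call.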
